A study of Mus musculus with 9 samples.

Results

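The array used in this study carried 3457 probes for exons of mouse long intergenic non-coding RNAs (lincRNAs), out of 59709 probes for transcripts. They were chosen by name alone, as the non-control probes whose names begin with MM9LINCRNAEXON, so that no signal entered the choice. A full name such as MM9LINCRNAEXON11297+_P1 holds an exon number and a strand, and the probe is called here the plus probe of exon 11297. The names held 1729 exon numbers between 10002 and 12127. Every exon had a plus and a minus probe except exon 10195, which had a minus probe alone. This gave 1728 plus and 1729 minus probes.

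Total RNA of mouse cardiac tissue was measured on 9 one-colour arrays in 3 groups of 3. The WT group came from mice with the strain label B6SV129F1 wild-type. The TAC group came from the same strain and was labelled with TAC surgery, an abbreviation that in heart studies usually stands for transverse aortic constriction, a narrowing of the aorta that overloads the left ventricle with pressure. Mice of the CnA group were of the strain labelled Myh6-CnA, named for a calcineurin A transgene driven by the Myh6 promoter, which is active in heart muscle cells. Wild-type littermates of the transgenic mice, a sham operation, ages, times after surgery and animal identities were not named in the labels, so each array was counted as 1 replicate. The p-values therefore measure the spread between these arrays, which may be technical.

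LincRNAs are spliced transcripts from loci between protein-coding genes that have no long reading frame. Mouse lincRNA loci were first catalogued from chromatin marks of active transcription, and their exons were then mapped by hybridisation, so that the transcribed strand was not always known. An array that probes both strands of each exon reports them separately. Calcineurin, a calcium-dependent phosphatase that activates NFAT transcription factors, and pressure overload are both used to produce enlarged hearts in mice, and some lncRNAs, such as those of the cardiac myosin heavy chain locus, are known to change in such hearts. Genome positions and probe sequences were not used here, and the exons are given by the numbers in the probe names. The labels do not state whether labelling kept the strand of the RNA, so "plus" and "minus" name the probe and not a proven transcript. The labelled tissue was not checked against marker genes, since marker symbols were not matched to probes here.

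Array brightness differed between the groups. Before any scaling, an array's 75th percentile of processed signal ranged from 427 to 454 intensity units on the WT arrays, from 263 to 280 on the TAC arrays and from 283 to 300.2 on the CnA arrays. Between 65.0% and 73.5% of the lincRNA exon probes were well above background on an array. The 3 WT arrays, TAC replicate 1 and CnA replicate 3 lay in row 1 of their slide and the other 4 in row 2, and CnA replicate 3 came from a second scan. The part of brightness, slide position and scan in the results was not tested beyond the values given beside them. All levels below are scaled log2 signals, that is log2 of the processed signal minus the 75th percentile of the same array. The number of arrays, 3 per group, limits the precision.

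Cardiac RNA gave a measurable signal on most of the lincRNA exon probes. On all 9 arrays, 1996 probes (57.7%) were well above background, against 62.0% of all probes on the array. No array detected 571 of them, or 16.5% (14.0% of all probes), and 890 were detected on 1 to 8 arrays. The rule for testing, detection on all 3 arrays of at least 1 group and no outlier flag, left 2416 probes (69.9%, against 74.1% of all probes), of which 1167 were plus and 1249 minus probes. A stricter measure set the probes against the 20 negative control probes of the array. Of the 2416 tested probes, 1168 exceeded every negative control throughout the 3 arrays of some group, against 23917 of all 44224 probes tested. By array, the brightest negative control was exceeded by 26.3% to 29.9% of the lincRNA exon probes in WT, 31.6% to 32.3% in TAC and 33.9% to 35.7% in CnA. The shares of all probes on the array were 34.6% to 38.4% in WT, 35.3% to 36.2% in TAC and 39.3% to 40.02% in CnA. CnA was thus highest for all probes too, while WT and TAC overlapped there.

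Detection of one strand said little about the other. Both strands were detected on all 9 arrays for 586 of the 1728 exons with both probes, or 33.9%, and the product of the shares of each strand (56.3% of plus and 59.3% of minus probes) is 33.3%. The plus probe alone reached all 9 arrays for 386 exons, the minus probe alone for 438, and neither for 318. At the extremes, 139 exons had a plus probe on all 9 arrays and a minus probe on none, 186 had the reverse, and 48 had neither on any array. These shares are a description of the probes, which are not replicates.

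The probes with the highest signals are described first, chosen for their signal over all arrays after the values were seen. Signals rank probes and not amounts of RNA, since probes differ in how they hybridise. The highest was the plus probe of exon 11400, at 9.77, 9.83 and 9.83 on the WT arrays, 10.42, 10.29 and 10.43 on the TAC arrays and 10.15, 10.16 and 10.08 on the CnA arrays. The groups did not overlap, with WT lowest and TAC highest. In exon 10315 the minus probe read 9.08, 8.61 and 8.50 in WT, 10.23, 10.23 and 10.34 in TAC, and 9.89, 9.89 and 10.03 in CnA, again without overlap. Of the 8 probes with the highest signals, all 8 were called higher in TAC than in WT, by 0.35 for the minus probe of exon 11837 to 1.78 for the plus probe of exon 11341 (limma, adjusted p between 7.9e-06 and 0.011). In CnA 7 of the 8 were called higher than in WT, and the exception was the same minus probe of exon 11837 (change 0.11, limma adjusted p = 0.34). Over all 44224 probes tested, 39.6% were called higher in TAC and 36.2% in CnA. Among those in the signal range of the 604 brightest tested lincRNA exon probes, the shares were 49.1% and 44.5%. The negative control probes rose by a mean of 0.41 in TAC, more than the minus probe of exon 11837. None of the 8 was called between CnA and TAC, where the changes ran from -0.49 to -0.19 (limma, smallest adjusted p = 0.075), while 5 of the 8 had an unadjusted p under 0.05. WT replicate 1 was the highest WT array for 7 of the 8 probes.

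Many of the tested lincRNA exon probes differed between TAC and WT. Of 2416 probes, 1294 (53.6%) were called at an adjusted p under 0.05 (limma), 1057 higher and 237 lower in TAC, against a background of 60.1% of all 44224 probes tested (39.6% higher and 20.5% lower). The share higher among members was 43.8% and the share lower 9.81%. At a change of at least 2-fold, 288 members (11.9%) were higher and 119 (4.93%) lower, where the background was 14% and 13.2% (27.2% in either direction). The 3 arrays of each group did not overlap for 1587 members (65.7%), against 69.1% of all probes. The members' median log2 change was 0.41, and that of all probes was 0.32. Relative to that shift, 1034 of the called members lay above and 260 below. In whole tissue, fewer cells of a type and less RNA per cell cannot be told apart.

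The split into higher and lower calls depended on the scaling of the arrays. The 20 negative control probes, which match no transcript, themselves rose by a mean of 0.41 in TAC on this scale. With each array centred on those probes the members split into 299 higher and 388 lower, and all 44224 probes tested into 6402 and 12286. Median scaling (856 and 266), quantile normalization (901 and 266) and normexp background correction (1552 and 197) kept more higher than lower calls. Over all probes these settings gave 14381 and 9750, 14772 and 9898, and 24492 and 8101. Unscaled signals gave 160 higher and 873 lower, and 4114 and 20180 over all probes. Leaving out the scaling shifts every change by the same amount, and the part of array brightness in this split was not tested. With the slide row as a block 1020 were called (42.2%, against 50.1% of all probes), 828 higher and 192 lower. Within slide row 1, where 3 WT arrays meet 1 TAC array, the median change was 0.44 for the members and 0.34 for all probes.

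**Figure D1:**
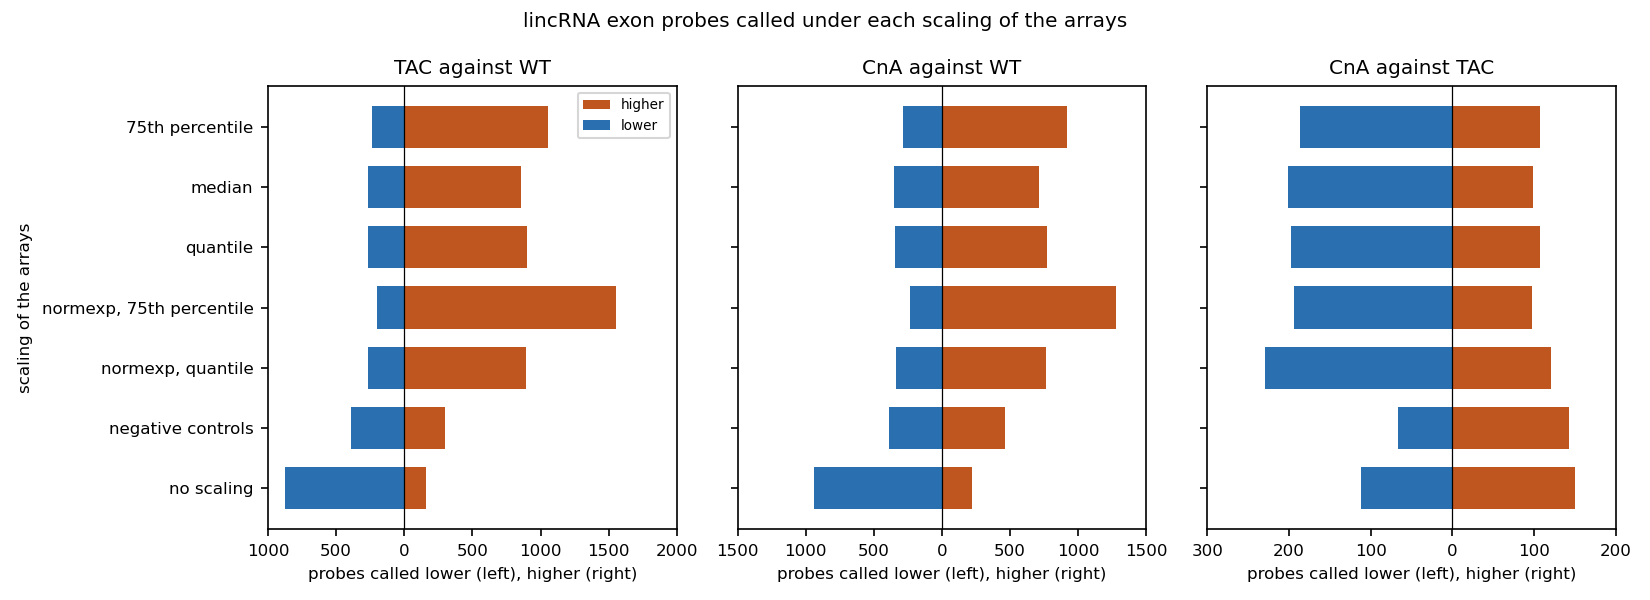
Number of tested lincRNA exon probes called lower (bars to the left, blue) and higher (bars to the right, orange) at a limma adjusted p under 0.05, for each comparison, under 7 ways of scaling the arrays; the horizontal axis is a count of probes and differs between panels. For TAC against WT the bars run from 1057 higher and 237 lower with the 75th percentile to 299 and 388 when centred on the negative controls and 160 and 873 with no scaling, while the median, quantile and normexp settings keep the longer side at higher.

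The 5 largest rises in TAC, among probes detected on all arrays of both groups and without overlap, were led by the minus probe of exon 10811. It read -3.89, -3.80 and -4.00 on the WT arrays and 0.31, 0.43 and -0.20 on the TAC arrays. On the CnA arrays, where it was not well above background, it read -4.05, -4.09 and -5.69. The probe was thus high in TAC alone, with a log2 change against WT of 4.07 (standard error 0.41, limma adjusted p = 6.6e-05). After normexp background correction with quantile normalization the change was 2.31.

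In exon 10860 the minus probe read -1.80, -0.59 and -0.62 in WT, 2.61, 2.52 and 2.64 in TAC and 1.70, 1.75 and 1.72 in CnA. It was high in both models, rising by 3.59 in TAC (standard error 0.29, limma adjusted p = 1.9e-05) and by 2.73 in CnA, and WT replicate 1 lay below the other WT arrays. In exon 11227 the plus probe read -1.22, -1.35 and -1.01 in WT, 2.01, 1.98 and 1.81 in TAC and 0.90, 1.14 and 1.55 in CnA. TAC stood above CnA and CnA above WT without overlap, and the rise in TAC was 3.13 (standard error 0.17, limma adjusted p = 3.0e-06). For the minus probe of exon 11569 the values were 0.52, 0.24 and 0.30 in WT, 3.27, 3.28 and 3.38 in TAC and 2.76, 2.74 and 2.79 in CnA. Its rise of 2.95 (standard error 0.10, limma adjusted p = 3.9e-07) was the most precise of the 5. In exon 10517 the plus probe rose about equally in both models, from -2.35, -2.39 and -2.80 in WT to 0.40, 0.21 and 0.48 in TAC and 0.51, 0.40 and 0.32 in CnA. Its change was 2.87 in TAC and 2.92 in CnA (standard error 0.14 for each, limma adjusted p = 1.9e-06 and 2.6e-06).

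The probes of the opposite strands of these 5 exons moved less or were not detected. In exon 10811 the plus probe rose by 0.55 in TAC (limma adjusted p = 0.024), the minus probe of exon 11227 by 0.63 (adjusted p = 0.0012) and the plus probe of exon 11569 by 0.91 (adjusted p = 0.00081, all from limma). In exon 10517 the minus probe was above background on none of the 9 arrays and the plus probe of exon 10860 on 1, so neither was tested.

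Of the 5 largest falls in TAC, chosen by the same rule as the rises, the first was the plus probe of exon 11297. It read 4.75, 4.81 and 4.70 on the WT arrays, 0.45, 0.39 and 0.47 on the TAC arrays, and 1.78, 1.78 and 1.61 on the CnA arrays. The 3 groups were far apart with little spread inside each, and the log2 change in TAC was -4.32 (standard error 0.09, limma adjusted p = 1.5e-07). On the other strand, the minus probe fell too, from -0.69, 0.02 and -0.08 in WT to -3.36, -3.28 and -3.68 in TAC and -3.84, -4.34 and -3.26 in CnA, and it was above background on 2 TAC arrays and 1 CnA array. All 6 of these TAC and CnA values lay below the 3 WT values. The changes of -3.19 and -3.57 rest in part on arrays at background, and the probe entered the test through WT alone.

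Exon 12016 also had a second probe with its highest values in WT. Its plus probe read 3.26, 3.52 and 3.15 in WT, 0.08, 0.05 and 0.13 in TAC and 1.09, 0.87 and 1.16 in CnA, a change of -3.23 in TAC (standard error 0.13, limma adjusted p = 6.3e-07). Its minus probe was detected on the 3 WT arrays alone, at -2.38, -2.02 and -2.52. It was at least 2.54-fold higher in WT than in TAC and at least 2.99-fold higher than in CnA. The TAC and CnA arrays were not well above background, and the probe entered the test through WT alone.

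In the remaining 3 the probe of the other strand was not called in TAC. In exon 11754 the minus probe read 1.91, 2.49 and 2.49 in WT, -1.48, -1.53 and -1.75 in TAC and -0.69, -0.88 and -0.83 in CnA, so that WT stood above CnA and CnA above TAC (change in TAC -3.88, standard error 0.17, limma adjusted p = 1.0e-06). The plus probe of that exon was detected on the 3 WT arrays alone, at -3.68, -3.87 and -3.41, which put WT at least 1.18-fold above CnA. Against TAC it was not called (limma adjusted p = 0.16). In exon 10858 the minus probe read 1.69, 1.097 and 1.27 in WT, -2.08, -1.99 and -1.92 in TAC and -1.59, -1.20 and -1.97 in CnA, with the models overlapping (change in TAC -3.35, standard error 0.21, limma adjusted p = 6.1e-06). For the plus probe of exon 11021 WT replicate 1 stood apart, with -0.28 against 1.90 and 1.83 on the other WT arrays. TAC read -1.85, -1.96 and -1.78 and CnA -1.64, -2.04 and -1.58, all below WT, and the change in TAC was -3.01 (standard error 0.52, limma adjusted p = 0.0013). Within slide row 1, which holds a single TAC array, the change was as large and was not called (-3.00, limma adjusted p = 0.11).

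**Figure D2:**
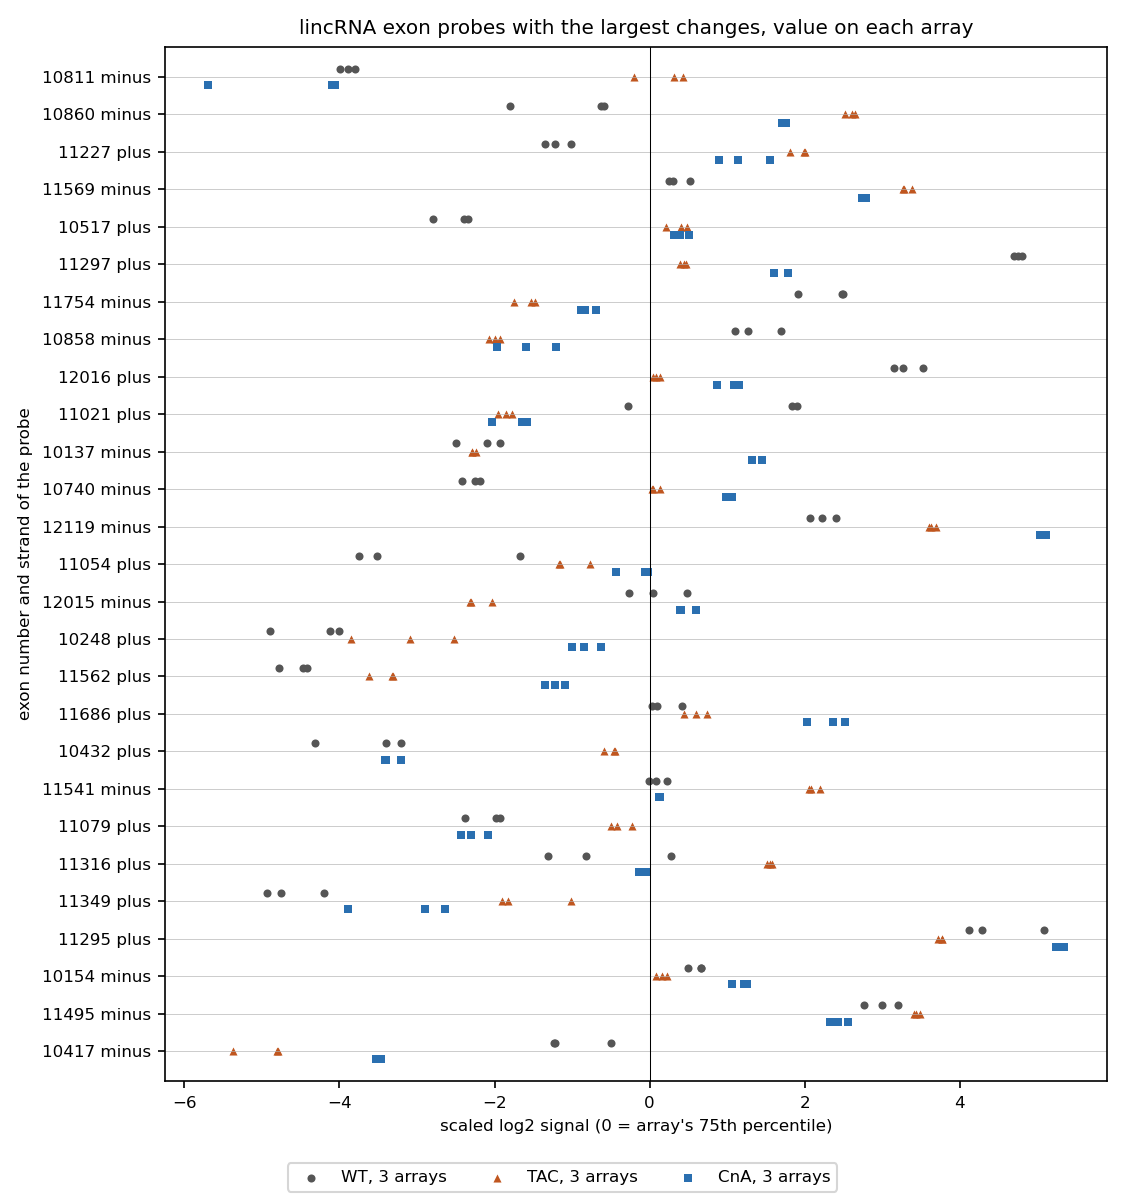
Scaled log2 signal on each of the 9 arrays for named lincRNA exon probes, chosen among those detected in both groups compared. Each row is a probe, circles are WT, triangles TAC and squares CnA, and 0 is the 75th percentile of the array. Exon 11297 plus sits near 4.75 in WT, 0.43 in TAC and 1.72 in CnA, exon 10811 minus is high in TAC alone and exon 10137 minus in CnA alone.

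In CnA against WT, 1201 of the 2416 tested members (49.7%) were called, 914 higher and 287 lower, against a background of 56.8% of all probes tested (36.2% higher and 20.5% lower). At a change of at least 2-fold 301 (12.5%) were higher and 134 (5.55%) lower, where the background was 13.9% and 11.4% (25.4% in either direction). The groups did not overlap for 1375 members (56.9%), against 62.4% of all probes. The median change was 0.29 for the members and 0.22 for all probes, and 914 called members lay above and 287 below that shift. Centred on the negative controls the split was 465 higher and 387 lower, and 9008 and 10965 over all 44224 probes tested. Unscaled signals gave 224 higher and 937 lower, and 5025 and 19788 over all probes. The part of array brightness in this split was not tested. With the slide row as a block 997 were called (41.3%, against 47.5% of all probes), 747 higher and 250 lower. Slide row 1 held 1 CnA array, which alone came from the second scan, so group and scan cannot be told apart there. Within that row the median change was 0.25 for the members and 0.19 for all probes.

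Among probes detected on all arrays of both groups and without overlap, the largest rise in CnA was at the minus probe of exon 10137. It read -1.93, -2.50 and -2.10 in WT, -2.29, -2.29 and -2.24 in TAC, and 1.44, 1.32 and 1.44 in CnA. WT and TAC overlapped and CnA stood alone, with a change of 3.58 against WT (standard error 0.15, limma adjusted p = 1.1e-06) and -0.10 for TAC against WT (adjusted p = 0.57). In exon 10740 the minus probe read -2.19, -2.26 and -2.42 in WT, 0.13, 0.05 and 0.03 in TAC and 1.07, 0.99 and 1.03 in CnA. It rose in both models, by 3.32 in CnA (standard error 0.10, limma adjusted p = 3.2e-07) and by 2.36 in TAC (adjusted p = 7.3e-07). In exon 12119 the minus probe stepped up in the same order, from 2.41, 2.22 and 2.06 in WT to 3.60, 3.63 and 3.69 in TAC and 5.03, 5.04 and 5.11 in CnA, a change of 2.83 in CnA (standard error 0.11, limma adjusted p = 8.6e-07). Between these in size came the plus probe of exon 10517, given above.

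Last of the 5 was the plus probe of exon 11054. It read -3.75, -3.52 and -1.67 in WT, -1.17, -1.15 and -0.77 in TAC, and -0.02, -0.44 and -0.06 in CnA. WT replicate 3 stood apart, yet all WT arrays lay below all others (change in CnA 2.80, standard error 0.48, limma adjusted p = 0.0014). Leaving out each array in turn gave changes from 2.42 to 3.46. Within slide row 1 the change was 2.92 and was not called there, and it rests on the single CnA array from the second scan. The minus probe of this exon rose by 0.91 in CnA (limma adjusted p = 0.00029).

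The 5 largest falls in CnA, chosen by the same rule as the rises, were largely at probes already described. In exon 11754 the minus probe changed by -3.10, the plus probe of exon 11297 by -3.03, the minus probe of exon 10858 by -2.94 and the plus probe of exon 11021 by -2.90 (limma adjusted p = 4.1e-06, 3.5e-07, 1.5e-05 and 0.0017). The fifth was the minus probe of exon 10417, at -0.50, -1.24 and -1.22 in WT and -3.53, -3.46 and -3.46 in CnA (change -2.50, standard error 0.23, limma adjusted p = 4.9e-05). On the TAC arrays it was not well above background, at -4.81, -5.37 and -4.80. Both models stood below WT for all 5 probes. For the plus probe of exon 11021 the change within slide row 1 was -2.73 and was not called there. It rests on the single CnA array from the second scan. For the minus probe of exon 10417 the change was -1.12 after normexp background correction.

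The comparisons of TAC and of CnA with WT share the 3 WT arrays, so their calls are not independent and are given side by side. Of the 2416 tested members 974 were called in both (40.3%), against a background of 47.3% of all probes. Of the 974, 780 were higher in both and 191 lower in both. Calls in TAC alone numbered 320, in CnA alone 227, and 895 probes were called in neither. For these counts, and for those higher or lower in both, the share over all probes was not taken. Only 3 of the members tested were called in opposite directions, or 0.124%, where the background was 0.606% of all probes. These are a description of the calls, and the test that bears on them is the direct comparison of CnA with TAC.

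In exon 11295 the plus probe read 5.09, 4.28 and 4.11 in WT, 3.77, 3.72 and 3.77 in TAC and 5.35, 5.23 and 5.33 in CnA. TAC lay below and CnA above all WT arrays, with changes of -0.74 and 0.81 (standard error 0.22, limma adjusted p = 0.021 and 0.015). In exon 10154 the minus probe read 0.49, 0.66 and 0.66 in WT, 0.23, 0.08 and 0.16 in TAC and 1.21, 1.06 and 1.26 in CnA, in the same order (changes -0.45 and 0.57, limma adjusted p = 0.0056 and 0.0018). In exon 11495 the minus probe went the other way, from 3.20, 3.00 and 2.77 in WT to 3.43, 3.41 and 3.49 in TAC and 2.56, 2.42 and 2.32 in CnA (changes 0.46 and -0.55, limma adjusted p = 0.014 and 0.0064). Changes of this size lie near the shift between scalings: centred on the negative controls, the change in TAC for exon 11495 was 0.05 and that in CnA for exon 10154 was 0.34, and neither was called (limma adjusted p = 0.81 and 0.14).

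**Figure D3:**
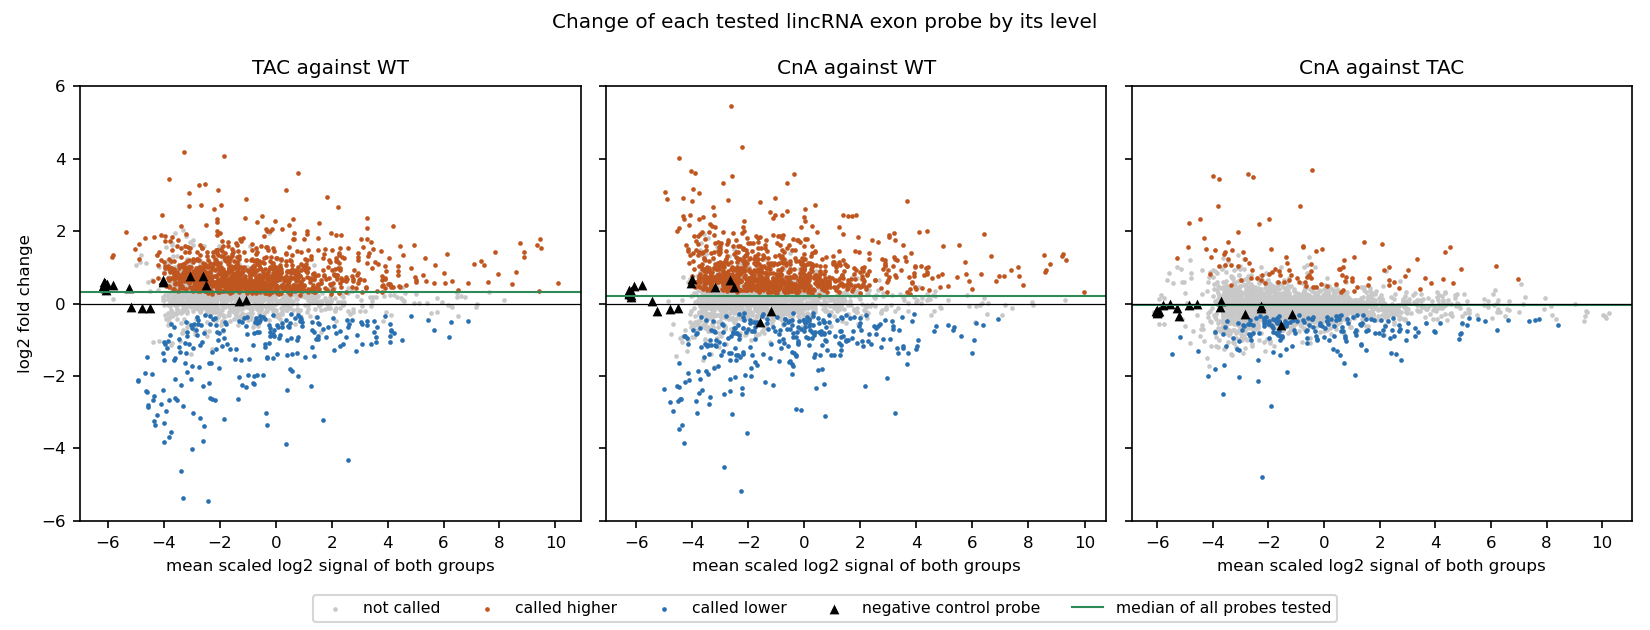
Log2 fold change of the 2416 tested lincRNA exon probes against their mean scaled log2 signal in both groups of each comparison. Called probes are orange (higher) or blue (lower), uncalled probes grey, black triangles are the 20 negative control probes, and the green line is the median change of all 44224 probes tested, at 0.32, 0.22 and -0.04; the negative controls lie mostly above 0 in TAC against WT.

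CnA and TAC differed at fewer of these probes. Of 2416 members 293 (12.1%) were called, 107 higher and 186 lower in CnA, against a background of 17.4% (10.5% higher and 6.89% lower). At 2-fold or more 48 were higher (1.99%) and 37 lower (1.53%), where the background was 4.69% and 1.59% (6.28% in either direction). The groups did not overlap for 914 members (37.8%), against 46.1% of all probes. The median change was -0.10 for members and -0.04 for all probes, and the negative controls fell by a mean of 0.17. Centred on the negative controls the split turned to 142 higher and 66 lower, and with no scaling to 150 higher and 112 lower. Over all 44224 probes tested these settings gave 5225 and 1129, and 5777 and 1856. Of the 107 probes higher in CnA, the WT level lay below both models for 56, between them for 17 and above both for 34. Of the 186 lower in CnA it lay below both for 81, between for 69 and above both for 36. These positions were not counted over all probes.

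The total of 293 depended on single arrays. It fell to 144 without TAC replicate 1, 149 without TAC replicate 2, 159 without TAC replicate 3, 170 without CnA replicate 1 and 186 without CnA replicate 2. These were 5.96%, 6.17%, 6.58%, 7.04% and 7.70% of members, against 10.3%, 9.82%, 10.8%, 10.7% and 11.8% of all probes. Within slide row 2, with 2 arrays of each model, 277 were called (11.5%, against 17.1% of all probes). With the spread taken from the WT arrays alone 22 were (0.911%, against 1.65%).

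The minus probe of exon 10137, given above, was also the largest rise of CnA over TAC, by 3.68 (standard error 0.15, limma adjusted p = 5.6e-06). In exon 12015 the minus probe read 0.48, 0.04 and -0.26 in WT, -2.32, -2.04 and -2.31 in TAC and 0.60, 0.40 and 0.39 in CnA. WT and CnA overlapped and TAC alone was low, with a change of 2.69 for CnA over TAC (standard error 0.19, limma adjusted p = 7.5e-05) and -2.31 for TAC against WT (adjusted p = 2.0e-05). In exon 10248 the plus probe read -4.00, -4.90 and -4.12 in WT, where it was above background on 1 array, then -3.85, -3.09 and -2.52 in TAC and -0.62, -1.002 and -0.84 in CnA. CnA stood above the rest by 2.33 over TAC (standard error 0.35, limma adjusted p = 0.0029), a call not made with the spread of the WT arrays (adjusted p = 0.057). In exon 11562 the plus probe was not well above background in WT and read -3.62, -3.31 and -3.33 in TAC and -1.10, -1.23 and -1.36 in CnA, a change of 2.19 (standard error 0.14, limma adjusted p = 5.5e-05). In exon 11686 the plus probe read 0.42, 0.02 and 0.09 in WT, 0.60, 0.44 and 0.74 in TAC and 2.36, 2.03 and 2.53 in CnA. It rose in CnA by 1.71 over TAC (standard error 0.17, limma adjusted p = 0.00035), and the change of TAC against WT was 0.42 (adjusted p = 0.059).

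Of the probes lower in CnA than in TAC and detected on all arrays of both, the first 4 were high in TAC alone. In exon 10432 the plus probe read -4.31, -3.20 and -3.40 in WT, -0.46, -0.58 and -0.45 in TAC and -3.21, -3.40 and -3.41 in CnA, a change of -2.84 for CnA against TAC (standard error 0.26, limma adjusted p = 0.00024). In exon 11541 the minus probe read 0.08, 0.22 and -0.01 in WT, 2.08, 2.05 and 2.19 in TAC and 0.13, 0.12 and 0.12 in CnA (change -1.98, standard error 0.10, limma adjusted p = 1.4e-05). In exon 11079 the plus probe read -2.38, -1.93 and -1.98 in WT, -0.50, -0.23 and -0.42 in TAC and -2.08, -2.30 and -2.43 in CnA (change -1.89, standard error 0.16, limma adjusted p = 0.00016). WT and CnA overlapped for each of these, and none reached the threshold between CnA and WT (changes 0.30, 0.03 and -0.17, limma adjusted p = 0.35, 0.81 and 0.38).

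In exon 11316 the plus probe read 0.28, -0.83 and -1.31 in WT, 1.55, 1.52 and 1.57 in TAC and -0.13, -0.03 and -0.14 in CnA. WT spread over a range that covers CnA, while TAC lay above both (change -1.65, standard error 0.34, limma adjusted p = 0.012). In exon 11349 the plus probe read -4.75, -4.94 and -4.20 in WT, -1.83, -1.02 and -1.90 in TAC and -2.90, -2.64 and -3.89 in CnA (change -1.56, standard error 0.37, limma adjusted p = 0.024). The call on exon 11349 was the weakest, lost without TAC replicate 1 or 2 or CnA replicate 1 or 3 (changes from -1.18 to -1.81 over all arrays left out in turn, largest limma adjusted p = 0.083). When the spread came from WT alone, or with the slide column as a block, the calls on exons 11316 and 11349 were lost, and exon 10432 was lost with the first of these (adjusted p = 0.054). Normexp background correction gave smaller changes between CnA and TAC, of 1.16 for the plus probe of exon 10248, 1.04 for that of exon 11562, -1.57 for that of exon 10432 and -0.76 for that of exon 11349.

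Some exons were detected in one group and in no array of another, and for those a fold can be given only as a minimum. They were picked for this detection, so no p-value is given beside the minimum. For each undetected array, whichever was higher of the probe's own signal and that array's faintest signal well above background was taken, and the mean of these was subtracted from the mean of the detected arrays. Detection on all WT arrays and on no TAC array was found for 54 probes, and on no CnA array for 38. In the other direction, 28 probes were detected on all CnA arrays and no WT array, and 8 on all TAC arrays and no WT array. Between the models, 23 were detected in CnA and on no TAC array, and 8 the other way. The bound reached 2-fold for 22, 14, 18, 6, 7 and 2 of these, in the same order. Such probes were not counted over the whole array, so these counts do not set the lincRNA exon probes apart from other probes.

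In exon 11201 the minus probe was seen in WT alone, at -0.82, 1.02 and 0.71. TAC read -4.87, -5.65 and -4.98 and CnA -5.83, -4.33 and -4.43. WT was at least 18.3-fold higher than CnA and at least 15.6-fold higher than TAC. Its plus probe was detected on all 9 arrays, with mean levels 2.19, 2.24 and 1.78 for WT, TAC and CnA and a change in TAC of 0.05 (limma adjusted p = 0.77). In exon 10320 the minus probe was likewise seen in WT alone, at -0.98, -0.09 and -0.78, at least 9.66-fold above CnA and 8.23-fold above TAC, and the plus probe of that exon was detected on no array. In exon 11370 the plus probe was not well above background in TAC, and read -0.33, -0.80 and -0.96 in WT and -0.84, -1.07 and -0.90 in CnA, which put WT at least 7.77-fold above TAC.

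In exon 10747 the minus probe was the reverse of these, not well above background in WT and detected in both models. It read -4.12, -6.04 and -5.94 in WT, -1.34, -1.12 and -1.11 in TAC and 0.14, 0.09 and 0.05 in CnA. CnA was at least 19.3-fold and TAC at least 7.89-fold above WT. Its plus probe, detected on all 9 arrays, changed by 0.67 in TAC and 0.60 in CnA (limma adjusted p = 0.0054 and 0.0096). In exon 11562 the plus probe was at least 7.70-fold higher in CnA than in WT, and the minus probe of exon 11829 at least 7.23-fold higher in CnA than in TAC. In WT that probe of exon 11829 read -1.52, -0.80 and -1.08, beside -0.82, -0.83 and -0.76 in CnA. The minus probe of exon 10811 was described above as the largest rise in TAC among probes detected in both groups. It was at least 16.8-fold higher in TAC than in CnA. In exon 11604 the plus probe read -2.19, -2.11 and -2.02 in TAC, at least 4.18-fold above WT, and -3.32, -3.08 and -2.96 in CnA.

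The probes of both strands of an exon could be compared within each array, where the scaling of the array cancels. The difference between the plus and the minus probe was taken on each array for 876 targets of all probe families with both probes above background on all 9 arrays, and 584 of these were lincRNA exons. The fit tests whether the strands changed by different amounts, and makes no statement on their levels. Between TAC and WT the strands of 193 exons (33.0%) changed unequally, against a background of 29% of the 876 pairs. Plus rose more, or fell less, for 98 exons and minus for 95. For CnA against WT 233 exons (39.9%) changed unequally, against 36.8%, with 124 towards plus and 109 towards minus. For CnA against TAC 17 did (2.91%, against 2.4%).

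Over all 584 exons, both probes were called in the same direction more often than in opposite directions, in a set where most calls were higher. In TAC 148 exons had both strands called the same way, 33 had them called opposite ways, 295 had 1 strand called and 108 neither. In CnA these counts were 106, 54, 284 and 140. For these counts the share over all 876 pairs was not taken, so they do not set lincRNA exons apart. The exons chosen for unequal change hold all of the opposite calls, so their own tally is a description of that choice. It was 30 the same way, 33 opposite, 127 with 1 strand called and 3 with neither in TAC, and 24, 54, 148 and 7 in CnA. A constant shift of an array cancels in the inequality but not in the directions. Quantile normalization gave 189 exons in TAC, 245 in CnA and 19 between the models. After normexp background correction with quantile normalization there were 226, 273 and 51. In the 33 exons the plus probe was the higher-going in 22, and in the 54 in 36. This was not counted over the pairs of all families. The difference was at least 2-fold for 113 exons in TAC (19.3%, against 16.6% of all 876 pairs) and 141 in CnA (24.1%, against 23.4%). Between the models it was for 14 (2.40%, against 2.05%). Across the 584 exons Pearson's r between the change of the plus and that of the minus probe was -0.01 for TAC, -0.02 for CnA and 0.04 between the models, as a description over exons measured on the same arrays.

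**Figure D4:**
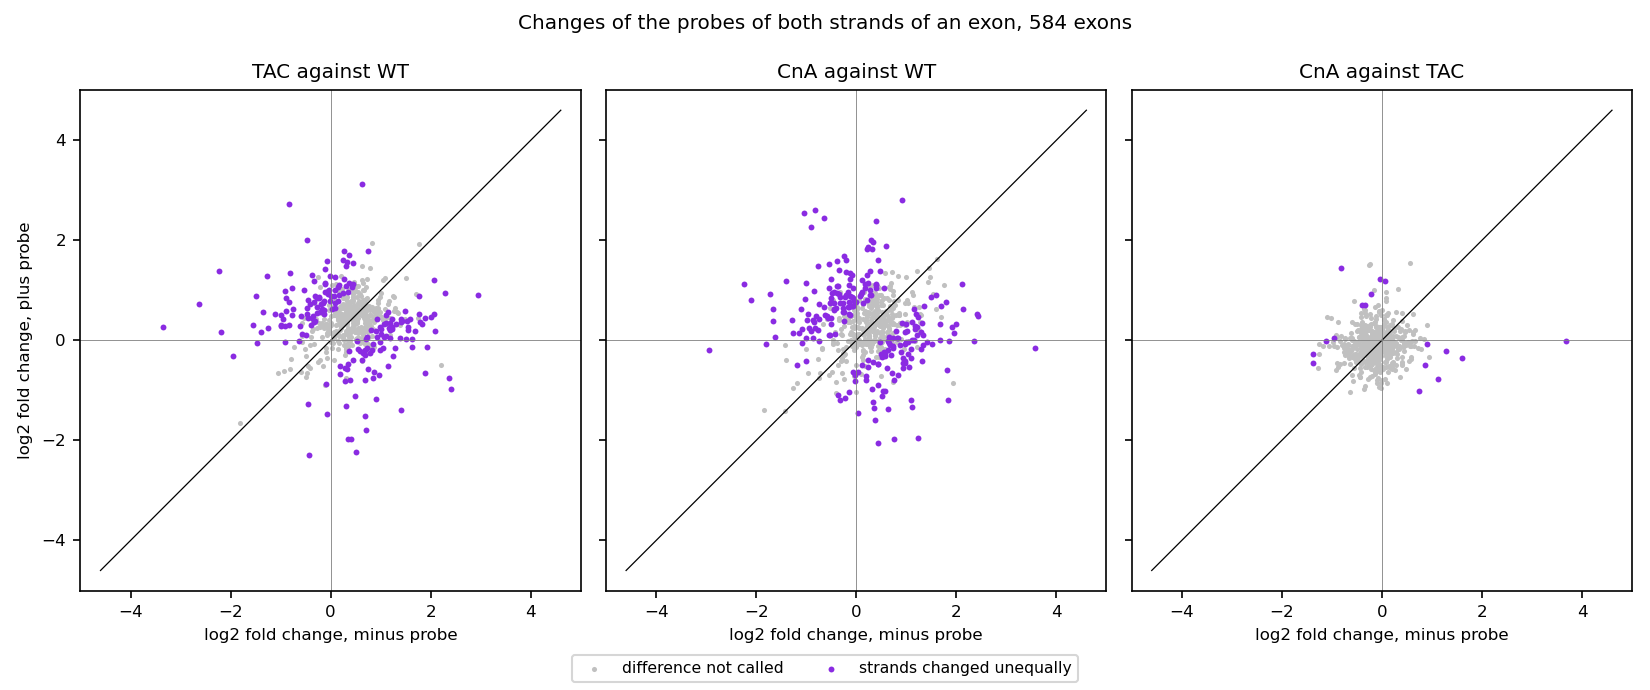
Log2 fold change of the plus probe (vertical) against that of the minus probe (horizontal) for the 584 lincRNA exons with both strands detected on all 9 arrays; the diagonal marks equal change and purple points are exons whose strands changed unequally at a limma adjusted p under 0.05. The purple points number 193, 233 and 17, lie on both sides of the diagonal, and the cloud shows no slope (r = -0.01, -0.02 and 0.04).

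Exon 11384 had the most unequal change in TAC. Its plus probe read -0.10, -0.52 and -0.33 in WT, 1.11, 1.08 and 1.03 in TAC and 0.31, 0.23 and 0.37 in CnA. Its minus probe read 1.14, 0.06 and -0.21 in WT, -1.89, -2.01 and -1.81 in TAC and -0.85, -0.80 and -0.69 in CnA. The strands thus moved apart in both models, by 3.63 in TAC (standard error 0.26, limma adjusted p = 2.2e-05) and by 1.73 in CnA (adjusted p = 0.00093), and the difference between the models, -1.89, was called as well (adjusted p = 0.0053).

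In exon 10858 the change lay in one strand. The plus probe read -2.77, -2.82 and -2.11 in WT, -1.85, -2.58 and -2.44 in TAC and -2.43, -2.11 and -3.73 in CnA, overlapping throughout, while the minus probe fell as given above. The change of the difference was 3.63 in TAC (standard error 0.36, limma adjusted p = 0.00011) and 2.75 in CnA (adjusted p = 0.00048). In exon 11219 the plus probe rose from -2.84, -3.27 and -3.82 in WT to -0.58, -0.65 and -0.55 in TAC and -1.14, -1.01 and -0.96 in CnA. Its minus probe went from -2.08, -2.10 and -2.31 to -2.98, -3.03 and -2.95 in TAC and -2.99, -2.96 and -3.25 in CnA. The strands of exon 11219 diverged alike in both models, by 3.54 in TAC and 3.17 in CnA (standard error 0.22, limma adjusted p = 6.3e-06 and 1.4e-05), and the models differed by -0.37 (adjusted p = 0.38).

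For CnA the most unequal exon was 10137, whose minus probe is described above. The plus probe read 0.83, 1.16 and 0.47 in WT, 0.60, 0.62 and 0.78 in TAC and 0.57, 0.65 and 0.76 in CnA, and the groups overlapped. The change of plus minus minus was -3.74 for CnA against WT and -3.69 for CnA against TAC (standard error 0.26, limma adjusted p = 1.5e-05 and 0.00010), and -0.05 for TAC against WT (adjusted p = 0.89). The change in this exon was seen on 1 strand and in 1 model.

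Exon 12061 changed on both strands in CnA. Its plus probe read -1.43, -1.78 and -2.43 in WT, -0.74, -0.90 and -0.89 in TAC and 0.74, 0.67 and 0.59 in CnA, and its minus probe 1.29, 2.15 and 2.54 in WT, 1.21, 1.25 and 1.19 in TAC and 1.12, 1.16 and 0.58 in CnA. The plus probe stepped upward from WT to TAC to CnA, and both models lay below WT on the minus probe. The minus probe changed by -1.04 in CnA (limma adjusted p = 0.018). Its change of -0.78 in TAC was not called (limma adjusted p = 0.051). The change of the difference was 3.58 in CnA (standard error 0.46, limma adjusted p = 0.00046) and 1.81 in TAC (adjusted p = 0.015). Exon 10484 had a plus probe at -1.26, -1.41 and -1.24 in WT, 0.49, 0.82 and 0.77 in TAC and 1.38, 1.13 and 1.43 in CnA. Its minus probe read -0.17, -0.52 and -0.74 in WT, -0.74, -0.92 and -1.18 in TAC and -1.36, -1.41 and -1.15 in CnA. The plus probe was higher and the minus probe lower in both models, with a change of the difference of 3.44 in CnA (standard error 0.23, limma adjusted p = 1.4e-05) and 2.47 in TAC (adjusted p = 9.6e-05).

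Between the models the list after exon 10137 held exons 11950 and 10761. In exon 11950 the plus probe read -1.95, -2.21 and -1.86 in WT, -1.09, -0.93 and -1.03 in TAC and 0.66, 0.44 and 0.21 in CnA. Its minus probe read -0.79, -1.31 and -1.10 in WT, -0.48, -1.08 and -1.13 in TAC and -1.23, -1.36 and -2.53 in CnA, where CnA replicate 3 stood apart. The change of the difference was 2.26 for CnA against TAC (standard error 0.30, limma adjusted p = 0.0051). In exon 10761 the minus probe alone was high in CnA, at 0.40, -0.12 and -0.11, against -2.20, -2.40 and -2.31 in WT and -1.79, -1.45 and -1.37 in TAC. The plus probe read -2.64, -2.45 and -1.51 in WT, -1.87, -2.16 and -1.57 in TAC and -1.82, -1.72 and -3.10 in CnA, so that CnA replicate 3 was again the lowest. The change, -1.94 (standard error 0.40, limma adjusted p = 0.034), was not called without any one of WT replicate 2, TAC replicate 1, 2 or 3, or CnA replicate 1 or 3, with values from -1.58 to -2.27 and a largest adjusted p of 0.13.

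**Figure D5:**
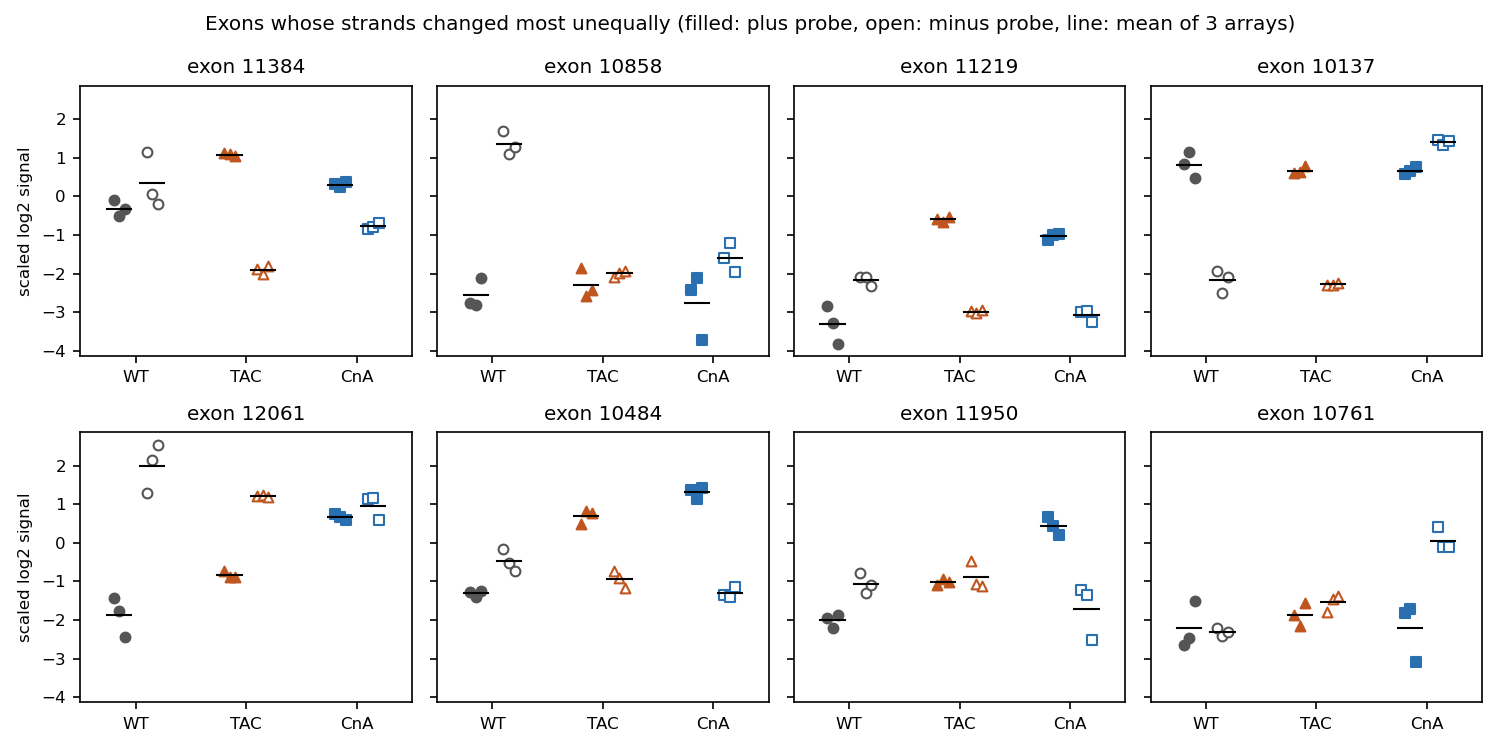
Scaled log2 signal of the plus probe (filled) and the minus probe (open) on each array for the 8 exons that were among the 3 most unequal in at least 1 comparison; circles are WT, triangles TAC, squares CnA, and lines are means of 3 arrays. In exon 10137 the minus probe is near -2.18 in WT and -2.28 in TAC and near 1.40 in CnA while the plus probe stays between 0.66 and 0.82, and in exon 11384 the strands move apart in TAC.

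The count of 17 exons between the models was the least settled of these. It was 36 without WT replicate 1, 32 without WT replicate 3, 7 without TAC replicate 1, 6 without TAC replicate 2, 5 without TAC replicate 3 and 7 without CnA replicate 1. These were 6.16%, 5.48%, 1.20%, 1.03%, 0.856% and 1.20%, against 5.25%, 4.45%, 1.14%, 0.913%, 0.685% and 1.03% of all pairs. For the models against WT the counts without each array in turn ran from 134 to 217 in TAC and from 195 to 236 in CnA, and with the slide row as a block they were 130 and 180.

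Minus probes were called lower more often, and plus probes higher more often, in both models. In TAC 83 of 1167 plus probes (7.11%) and 154 of 1249 minus probes (12.3%) were lower, and 547 (46.9%) and 510 (40.8%) were higher. In CnA 108 plus (9.25%) and 179 minus probes (14.3%) were lower, and 481 (41.2%) and 433 (34.7%) higher. Over all 44224 probes tested, 20.5% were lower in each model, and 39.6% were higher in TAC and 36.2% in CnA. Both strands thus lay below the background for falls. Median changes were 0.44 and 0.37 in TAC and 0.33 and 0.25 in CnA. The probes were not replicates and no test of this split was made.

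Brightness moved with the calls. The tested members were split by mean signal into 4 classes of 604. In the dimmest class 39.4% were called in TAC against WT, and in the brightest class 68.5%. All probes of the same range of signal gave 47.0% and 73.2%. Falls of at least 2-fold were seen for 3.64% of the brightest class, where the probes of that range gave 12.5%, and rises of at least 2-fold for 18.0%, where they gave 22.4%. In CnA the brightest class gave 6.29% and 15.7%, where all probes of that range gave 11.7% and 18.8%.

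Probes of 3 related families on the array are given for comparison. Of the tested lincRNA domain probes 189 of 403 were called in TAC (169 higher and 20 lower), of the probes for mouse counterparts of human lincRNAs 330 of 671 (295 and 35), and of the ultraconserved region probes 263 of 483 (203 and 60). These were 46.9%, 49.2% and 54.5%, beside 53.6% of the lincRNA exon probes and 60.1% of all probes tested. Falls of at least 2-fold numbered 1, 8 and 36 in these families, or 0.248%, 1.19% and 7.45%. They were 4.93% of the lincRNA exon probes and 13.2% of all probes tested. In strand pairs the share with unequal change in TAC was 15.3% of 85 domain pairs, 20% of 125 human counterpart pairs and 28.0% of 82 ultraconserved pairs, beside 33.0% of the lincRNA exons. In CnA the shares were 22.4%, 29.6% and 40.2%, beside 39.9%. Over all 876 pairs they were 29% in TAC and 36.8% in CnA. These shares were not tested against each other, since probes of a family are not replicates of a condition.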

How the data were processed

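RNA of 9 cardiac tissue samples, 3 per group, was read on one-colour Agilent arrays, and per the file headers the spots were extracted with Agilent Feature Extraction 11.0.1.1. The deposited scanner files give intensity values, of which the authors' software had already subtracted background (the processed signal). The authors also deposited tables of log2 values for lncRNA and mRNA probes, whose normalization is not given in the sources used here, and these served as an alternative. Per the labels' protocols, RNA was cleaned on columns, depleted of rRNA and amplified with random primers along whole transcripts. The deposited tables held 0 value columns without a sample.

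Here log2 of the processed signal minus the array's 75th percentile was taken, control spots and outlier-flagged probes were left out, and a probe was tested if some group had it well above background in each of its 3 arrays. The fit used limma 3.58.1 in R 4.3.3 (lmFit and eBayes) with 1 coefficient per group over all 9 arrays, Benjamini-Hochberg adjustment over all 44224 probes, and a threshold of 0.05. Strand pairs were fitted likewise on plus minus minus per array. The scripts were tested on simulated data. Named in the text are the 5 largest called rises and falls per comparison without overlap and above background in both groups, 3 strand pairs per comparison, up to 3 probes per group by their bound, and up to 4 probes called in opposite directions. The members were picked by name alone, though that rule and the lists were set with earlier results of these data known. Alternatives changed the scaling, background correction, filter, spread, blocks, threshold and arrays. With 3 arrays per group, their number limits the precision.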

Additional observations from a re-analysis of the deposited data

Results flagged for a closer look

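For 3 probes the changes in the models differed in direction, and the direct comparison of CnA with TAC was called for each. The plus probe of exon 11295 was higher in CnA than in TAC by 1.55 on the log2 scale (limma adjusted p = 0.0025), and its change against WT was not called under 10 of 26 settings in CnA and 5 of 26 in TAC. The minus probe of exon 10154 was higher in CnA than in TAC by 1.02 (limma adjusted p = 0.00039). The minus probe of exon 11495 had a change of -1.01 (limma adjusted p = 0.0013). Its change in TAC against WT lost its call in 5 of 26 settings and turned in 1. With the spread estimated from WT alone, none of the 3 direct comparisons was called (limma adjusted p = 0.11 for exon 11295, 0.064 for exon 10154 and 0.087 for exon 11495).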

How the results depend on the processing

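The 6 counts of calls were recomputed 159 times, of which 105 lay within 1.5 times the count given, 45 below and 9 above. For TAC against WT the probes called numbered 810 of 1168 when tested only if brighter than every negative control (69.3%, against 74.5% of all such probes), 777 with the spread estimated from WT alone, 687 centred on the negative controls and 201 in slide row 1 alone. With at least 2-fold they were 407, 427 at an unadjusted p, 368 after quantile normalization, 185 after normexp with quantile normalization, 305 centred on the negative controls and 192 after normexp. These were 16.8%, 17.7%, 15.2%, 7.66%, 12.6% and 7.95% of members, against 27.2%, 27.7%, 24.5%, 15.2%, 24.4% and 16.3% of all probes. Without each array in turn they ran from 1051 (43.5%, against 51.0% of all probes) to 1386 (57.4%, against 62.3%). For CnA against WT the first 2 settings gave 753 (64.5%, against 71.2%) and 707 and slide row 1 gave 313. The 2-fold settings gave 435, 449, 416, 174, 376 and 199 in that order, and leaving out arrays gave 1040 to 1297. For CnA against TAC, 2 groups alone gave 455, array weights 627, the WT spread 22 and the slide column as a block 134. These were 18.8%, 26.0%, 0.911% and 5.55% of members, against 27.2%, 34.1%, 1.65% and 9.24% of all probes. The 2-fold settings gave 85, 115, 86, 34, 91 and 33. These were 3.52%, 4.76%, 3.56%, 1.41%, 3.77% and 1.37% of members, against 6.28%, 7.35%, 6.31%, 2.52%, 7.40% and 2.37% of all probes. Leaving out arrays gave 144 (5.96%, against 10.3%) to 432 (17.9%, against 26.8%), the highest without WT replicate 1.

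For strand pairs in TAC the WT spread gave 87 (14.9%, against 13.1% of all pairs) and at least 2-fold 113. Both probes brighter than every negative control gave 94 of 176 (53.4%, against 50% of all such pairs). Leaving out arrays gave 134 (22.9%, against 20.1%) to 217 (37.2%, against 34.5%). In CnA these were 154 (26.4%, against 24.9%), 141 and 91 of 176 (51.7%, against 51.2%). Leaving out arrays there gave 195 (33.4%, against 30.9%) to 236 (40.4%, against 37.2%). Between the models normexp gave 43, normexp with quantile normalization 51, pairs of the probes tested one by one 44, 2 groups alone 39 and array weights 108. These were 7.36%, 8.73%, 5.18%, 6.68% and 18.5%, against 6.16%, 7.53%, 4.43%, 5.48% and 16.8% of all pairs. Leaving out arrays gave 5 (0.856%, against 0.685%) to 36 (6.16%, against 5.25%). The WT spread gave 0 with limma, and 87 at an unadjusted p under 0.05.

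With the replicate number as a block, 1173, 1093 and 186 probes and 157, 204 and 5 pairs were called, in the order of comparisons used above. The probes were 48.6%, 45.2% and 7.70% of members, against 55.6%, 52.2% and 12.1% of all probes. The pairs were 26.9%, 34.9% and 0.856%, against 23.2%, 31.8% and 0.799% of all pairs. The labels do not say whether the numbers pair the arrays. Deviations of the 9 same-numbered pairs correlated between -0.22 and -0.02, and those of the other pairs between -0.10 and 0.17. These correlations cannot settle whether arrays were paired. Of 1181 values of named probes and pairs 1126 kept direction and call, 53 lost the call and 2 turned. Both turned without scaling, which shifts every change in a comparison by the same amount. They were the minus probe of exon 10154 in CnA (-0.037, limma adjusted p = 0.80) and that of exon 11495 in TAC (-0.26, limma adjusted p = 0.083). Scaling to negative controls, no scaling, single slide rows, the 2-fold counts under other scalings or normexp, and, for pairs, the row block and the negative-control filter were chosen after seeing the data. The causes were not tested. Dim probes limit the counts: 1168 of the 2416 tested exceeded every negative control.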

Other observations

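Exon numbers that follow each other on the same strand had nearly unrelated changes. Over 1027 such neighbouring probe pairs Pearson's r of the log2 changes was 0.10 for TAC against WT, 0.06 for CnA against WT and 0.11 for CnA against TAC, and over 1001 pairs at a distance of 2 numbers it was -0.03, -0.02 and 0.06. These are descriptions over probes measured on the same arrays, and how exon numbers map to loci was not used here.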
